A study of Macaca fascicularis with 2 samples.

Results

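Steroid production and insulin-like peptide 3 were followed through 9 genes, chosen by name from the 18446 genes of the table: SCARB1, FDX1, FDXR, CYP17A1, HSD3B2, HSD17B1, CYP19A1, SRD5A1 and INSL3. Their levels are given for all 20967 cells, including the 4675 with more than 3000 detected genes. The 16 cells with 5 or more unique molecular identifiers (UMIs, each standing for a captured RNA molecule) of CYP17A1 were set apart as a rare group and placed beside 4564 stroma-like and 5385 granulosa-like cells. The cells came from whole ovaries of female cynomolgus monkey fetuses (Macaca fascicularis), 1 fetus at embryonic day 84 (E84) and 1 at E116. No treatment or genetic change is given for either, and both ovaries of a fetus were digested and loaded together. Each stage is therefore 1 animal and 1 library, and differences between animals cannot be estimated. The cell barcodes end in 1 or 2 with no statement of which ending is which stage, so no result by stage is given and the endings were treated as unlabelled batches.

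Steroid hormones are made from cholesterol. Cholesterol enters the cell through receptors such as SCARB1, is moved into mitochondria, and is cut to pregnenolone by the side chain cleavage enzyme CYP11A1, which receives electrons from adrenodoxin reductase (FDXR) through adrenodoxin (FDX1). HSD3B2 and CYP17A1 then lead to androgens, HSD17B1 and the aromatase CYP19A1 to oestradiol, and SRD5A1 reduces testosterone to dihydrotestosterone. In the adult follicle androgens are made in theca cells and turned into oestrogens in granulosa cells, and in the testis androgens are made in Leydig cells. INSL3 is a peptide hormone of Leydig and theca cells that acts through the receptor RXFP2.

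The 10621 cells with barcodes ending in 1 had a median of 3130 UMIs and the 10346 ending in 2 a median of 4555.5. The 2 endings shared 27 barcodes, and none of the CYP17A1-high cells carried a shared one. Cells were grouped into 19 clusters with the 9 genes and the related gene lists kept out of the clustering. Clusters were named from marker genes, and 3667 cells stayed unnamed. Levels are the UMIs of a gene relative to all UMIs of a group, scaled to 1000000 UMIs (CPM), with exact 95% Poisson intervals, which cover counting error only. With 1 pooled sample no test was possible and none was made.

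CYP17A1, the 17-alpha-hydroxylase and 17,20-lyase that opens the androgen branch, was almost confined to few cells. Of its 1432 UMIs in the table, 1261 (88.1%) lay in the 16 cells that the rule picked. Those cells held 6 to 192 UMIs each, with a median of 74.5. Just below the threshold, 0 cells had 4 or 5 UMIs, 4 cells had 3, 10 had 2 and 139 had 1. Summed over the 16 cells the level of CYP17A1 was 3236 CPM (95% interval 3060 to 3420), which the rule itself sets high. In stroma-like cells it was 2.59 CPM (1.99 to 3.30) and in granulosa-like cells 0.758 CPM (0.522 to 1.06). A UMI was seen in 1.16% of stroma-like, 0.576% of granulosa-like, 0.387% of germ cell-like and 0.268% of erythroid-like cells, at median depths of 3725, 5439, 1319 and 4063.5 UMIs. Erythroid cells do not make steroids, and their level was 0.529 CPM (0.0641 to 1.91) over both endings. The 4 erythroid markers, HBB among them, summed to 468708 CPM in erythroid-like cells, which lowers the CPM of all other genes there. Within the barcodes ending in 2, stroma-like cells had 3.39 CPM (2.56 to 4.40) and erythroid-like cells 1.11 CPM (0.0281 to 6.17) from 1 UMI, so a difference between them was not detectable. Granulosa-like cells of that ending had 0.927 CPM (0.605 to 1.36), below the interval of stroma-like cells. The part of free RNA in these levels was not tested. Macrophage-like cells had the highest level, 3.68 CPM (1.00 to 9.43), from 4 UMIs, and did not differ from stroma-like cells beyond counting error.

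All 16 cells had barcodes ending in 2. Among barcodes ending in 1, 38 cells had a CYP17A1 UMI and none had more than 2. The largest count of INSL3 there was 1 and that of HSD3B2 was 3. The ending, the stage, the fetus and the library cannot be told apart.

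The CYP17A1-high cells lay in stroma-like clusters, 13 in the cluster led by C7 and 3 in the cluster led by UBD. They were deep cells, with 4699 to 67656 UMIs (median 21901), and 12 of them had more than 3000 genes, the limit above which the study removed cells. Scores from Scrublet, which compares each cell with simulated doublets, stood between the 48.2 and 67.8 percentile of their own ending. None was among the 8% of cells with the highest scores. The share of mitochondrial UMIs ran from 7.64% to 55.9% (median 10.4%), with cell 1 at 55.9% and cell 4 at 32.0%, when the cells are numbered by falling CYP17A1 count.

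**Figure D1:**
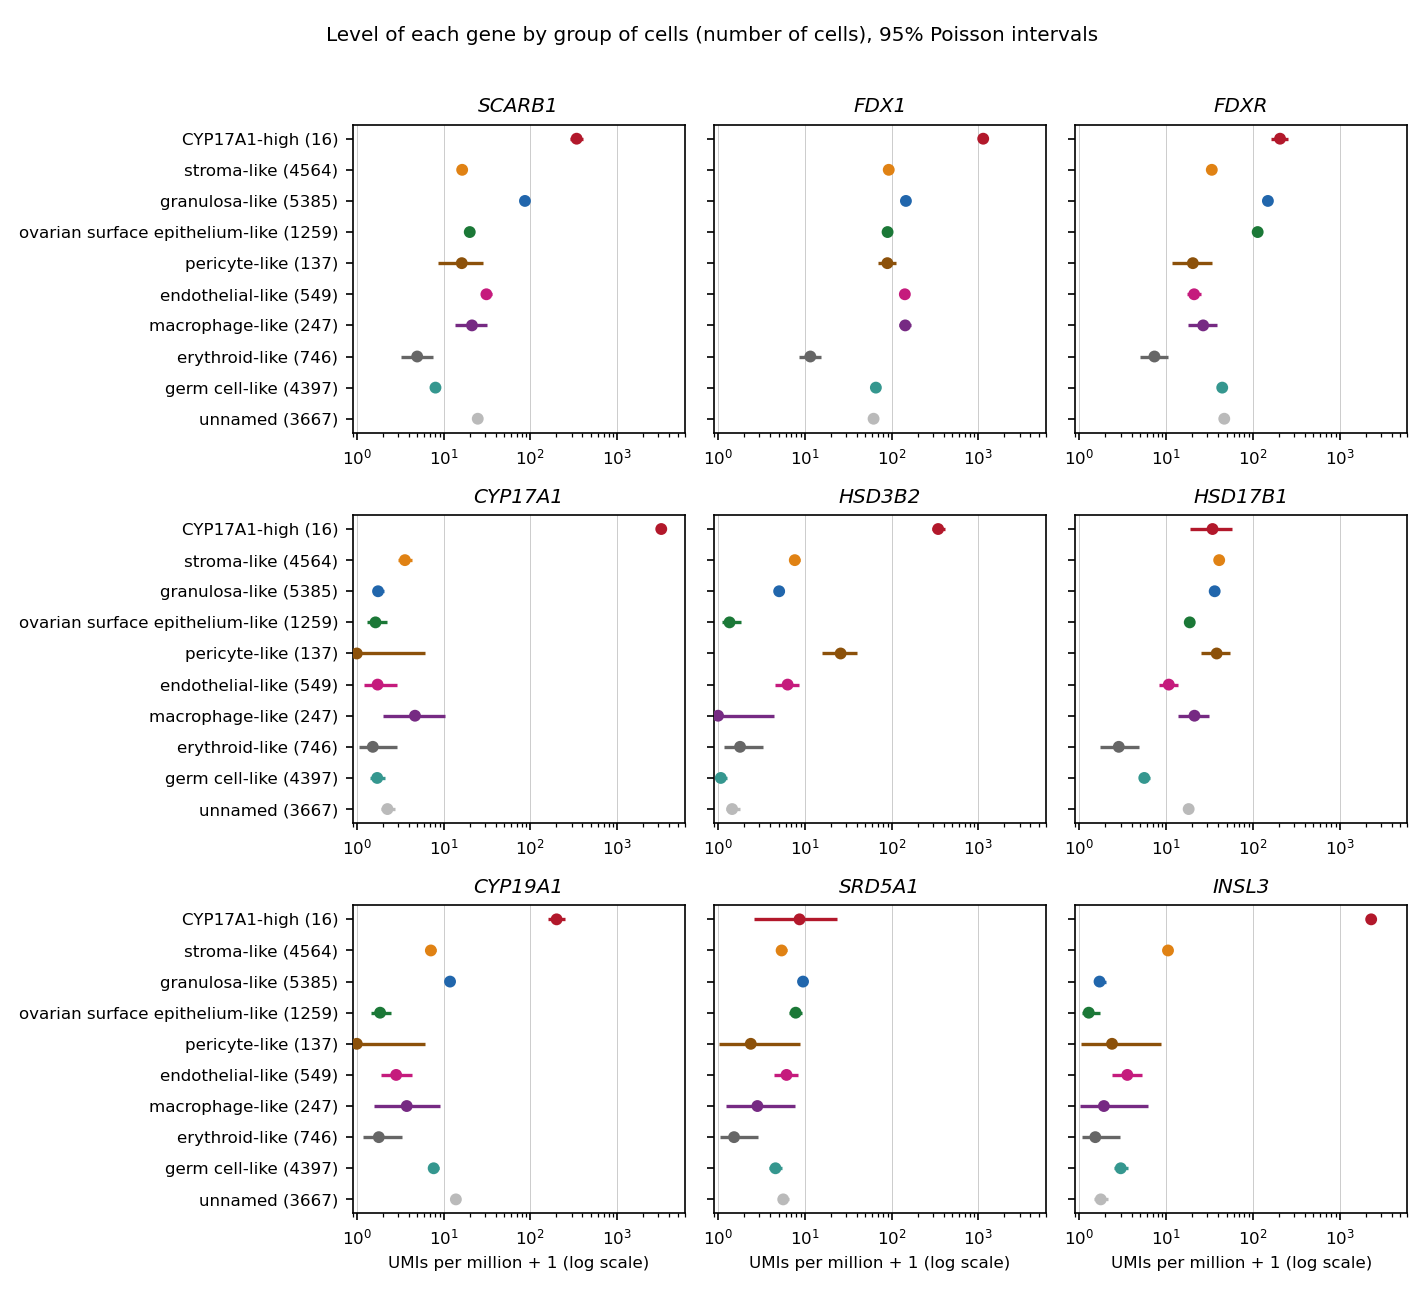
Level of each of the 9 genes in every group of cells, as CPM plus 1 on a log axis, with the number of cells in brackets; points are levels from summed UMIs and lines are exact 95% Poisson intervals. The CYP17A1-high cells stand to the right of every other group for SCARB1, FDX1, FDXR, CYP17A1, HSD3B2, CYP19A1 and INSL3, but not for HSD17B1 and SRD5A1.

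Of the 8 genes that did not choose the cells, 6 were at least 2-fold higher in CYP17A1-high cells than in stroma-like cells with 10 CPM added to both levels, against 1.62% of all genes of the table. Their median log2 ratio was 3.60, and that of all genes was −0.04. With only stroma-like cells with barcodes ending in 2 as the reference, 6 of 8 passed (median 3.45), against 1.57% of all genes. Without the 2 cells over 60000 UMIs the count was also 6 of 8 (median 4.01), against 2.23% of all genes. Against granulosa-like cells 5 of 8 passed (median 2.38), while 2.26% of all genes did.

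Cholesterol supply is the first step. SCARB1, the receptor for high-density lipoprotein, stood at 341 CPM (286 to 404) in the rare cells, 15.4 CPM (13.9 to 17.0) in stroma-like cells and 85.8 CPM (83.1 to 88.6) in granulosa-like cells. Its 133 UMIs came from 7 of the 16 cells, and the 3 highest cells held 79.7% of them. The counts were 52 in cell 4, 40 in cell 1 and 14 in cell 3, while 9 cells had none. SCARB1 was seen in only some of these cells, and the log2 ratio of 3.79 to stroma-like cells (counting bounds 3.45 to 4.12) describes their sum. Without the cells over 3000 genes, which leaves 4 cells, the ratio was 5.69, but all SCARB1 UMIs of those 4 were in cell 1. At no more than 10% mitochondrial UMIs the ratio was 2.33.

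The electron chain was more even. FDX1 had a UMI in all 16 cells, with 1 to 78 UMIs and a median of 17.5. Its level was 1139 CPM (1036 to 1250) against 91.9 CPM (88.1 to 95.7) in stroma-like and 146 CPM (142 to 149) in granulosa-like cells. Only cells 13, 14 and 16 had fewer than 5 UMIs of it. FDXR was also seen in all 16, with 1 to 14 UMIs and a median of 5. It reached 205 CPM (163 to 256), while stroma-like cells had 32.7 CPM (30.5 to 35.0). Granulosa-like cells had 148 CPM (145 to 152), so the log2 ratio was 2.33 to stroma-like but 0.44 to granulosa-like cells.

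The row CYP11A was taken to be the enzyme that this chain serves, CYP11A1, under an older symbol, which the table does not state. It had 59 UMIs among all cells, and 45 of them (76.3%) lay in 10 of the 16 CYP17A1-high cells. Its level there was 115 CPM (84.2 to 155), against 0.162 CPM (0.0440 to 0.414) from 4 UMIs in stroma-like cells. A single UMI was found in granulosa-like cells. The row was picked after the table was seen, because CYP11A1 itself is not a row of it.

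HSD3B2, which turns delta-5 into delta-4 steroids, was unevenly spread over the rare cells. It had 46 UMIs in cell 11, 38 in cell 1, 22 in cell 6 and 12 in cell 3, and 7 cells had none. The level was 344 CPM (288 to 407), that of stroma-like cells 6.67 CPM (5.69 to 7.77) and that of granulosa-like cells 4.06 CPM (3.49 to 4.71). The log2 ratio to stroma-like cells was 4.41 (4.07 to 4.73). HSD3B1, a near-identical copy, has no row of its own, so reads of the pair could have been counted together or lost, and values of HSD3B2 are uncertain to that extent.

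The oestrogen branch was split. CYP19A1 had 78 UMIs in 9 of the 16 cells, led by 28 in cell 8, 20 in cell 3 and 11 in cell 6. Its level of 200 CPM (158 to 250) stood against 6.14 CPM (5.20 to 7.20) in stroma-like and 10.9 CPM (9.93 to 11.9) in granulosa-like cells. Within the 4 cells of up to 3000 genes it was 31.4 CPM (0.794 to 175) from 1 UMI. The log2 ratio to stroma-like cells under that limit, 1.47 in place of 3.70, rests on that UMI. HSD17B1, which reduces oestrone to oestradiol, had 13 UMIs in 8 cells and no more than 3 in any of them. Its level of 33.4 CPM (17.8 to 57.0) overlapped the intervals of stroma-like (40.004 CPM, 37.6 to 42.6) and granulosa-like cells (35.4 CPM, 33.6 to 37.2). The log2 ratio to stroma-like cells was −0.21 (−0.92 to 0.50), so a difference was not detectable at this depth. In the 4 cells with up to 3000 genes the ratio was 1.08, but it rests on 2 UMIs in cell 1 and 1 in cell 13. The gene overlaps NAGLU in the RefSeq annotation of another assembly of this species, T2T-MFA8v1.1.

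SRD5A1, the type 1 5-alpha-reductase, had 3 UMIs in the rare cells, all in cell 5. The resulting 7.70 CPM (1.59 to 22.5) included the levels of stroma-like (4.40 CPM) and granulosa-like cells (8.54 CPM). With 389692 UMIs in the 16 cells together, this level rests on 3 counts. The log2 ratio to stroma-like cells was 0.30 (−0.40 to 1.25), and it was −0.57 in the 4 cells with up to 3000 genes, where none of these counts lie.

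INSL3 was high in most of these cells. All 16 had at least 1 UMI, the median was 17.5, and the highest counts were 276 in cell 12, 206 in cell 8, 144 in cell 10 and 107 in cell 2. The level was 2317 CPM (2169 to 2473), against 9.54 CPM (8.36 to 10.8) in stroma-like and 0.712 CPM (0.484 to 1.01) in granulosa-like cells. The rare cells held 71.3% of the 1267 INSL3 UMIs of the table. The log2 ratio to stroma-like cells was 6.90 (6.71 to 7.08) and ran from 6.605 to 7.78 over the alternatives tried.

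**Figure D2:**
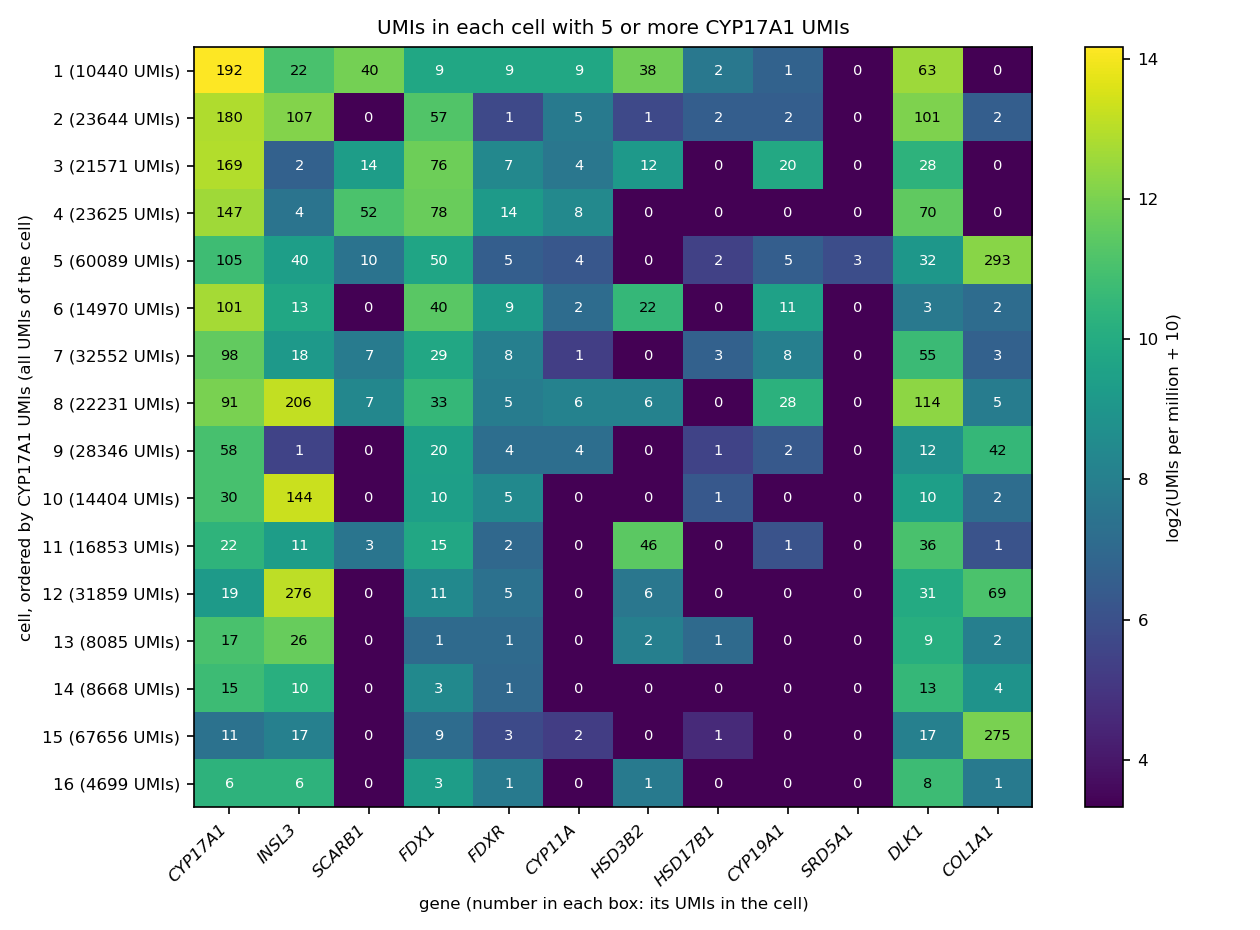
UMIs of the 9 genes, CYP11A, DLK1 and COL1A1 in each of the 16 CYP17A1-high cells (rows, ordered by CYP17A1 count, with the total UMIs of the cell); the number in a box is the count and the colour is log2(CPM + 10). CYP11A and SCARB1 fill mostly the upper rows, INSL3 peaks in cells 12, 8, 10 and 2, and COL1A1 is high in cells 5 and 15.

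The cells were not alike. The 4 cells richest in CYP17A1, with 147 to 192 UMIs, had 22, 107, 2 and 4 UMIs of INSL3, while cell 12 had 19 UMIs of CYP17A1 and 276 of INSL3. Across the 16 cells, Spearman's rho with the CPM of CYP17A1 was 0.01 for INSL3. It was 0.74 for FDX1, 0.76 for CYP11A, 0.67 for CYP19A1, 0.55 for FDXR, 0.54 for SCARB1 and 0.38 for HSD3B2. These are descriptions over 16 cells of 1 library that share its depth and free RNA. All 6 cells with 5 or more UMIs of SCARB1 also had 5 or more of FDX1, as did 13 of the 16 cells in all. HSD3B2 and SCARB1 reached 5 in 6 cells each, and 3 cells were the same. CYP11A was absent from 6 cells, cells 10 to 14 and cell 16, which had 6 to 30 UMIs of CYP17A1.

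Cells just below the threshold were mixed. Of the 4 cells with 3 CYP17A1 UMIs, 3 were stroma-like and had 17, 7 and 0 UMIs of INSL3. The other was germ cell-like, with 10 UMIs of DDX4 and none of INSL3 or HSD3B2. Below the rule, 5 stroma-like cells had 5 or more UMIs of INSL3, namely 75, 41, 17, 7 and 5. Their CYP17A1 counts were 2, 0, 3, 3 and 0, and all had barcodes ending in 2. These 5 cells held 61.4% of the INSL3 UMIs of stroma-like cells, whose level was 3.69 CPM without them.

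The stroma-like name rests on the clusters, and the marker genes of the rare cells departed from it in part. All 10 stroma markers had a UMI in them, but their summed level was 5838 CPM, against 22802 CPM in stroma-like and 2648 CPM in granulosa-like cells. Much of it came from cells 5 and 15, the 2 cells over 60000 UMIs, and without them the sum was 3737 CPM. DLK1 is among the 10 markers and made up 2111 CPM of that sum. Without these 2 cells COL1A1, COL3A1 and DCN were at 508, 294 and 317 CPM, below the 631, 980 and 876 CPM of granulosa-like cells. TCF21, at 72.5 against 18.3 CPM, was above. COL1A1, a fibrillar collagen, had 293 and 275 UMIs in these 2 cells and a median of 176 CPM over the 16, against a median of 9136 CPM in stroma-like cells. LUM and POSTN stood at 5.13 CPM each, against 307 and 530 CPM in stroma-like cells. Both are leading genes of the stroma-like cluster led by POSTN, in which 1850 of 1906 cells had barcodes ending in 1. All 16 rare cells had barcodes ending in 2 and lay in other clusters, so this contrast mixes cluster and ending. DLK1, a non-canonical Notch ligand that marks fetal Leydig cells, was seen in all 16 cells, with 1545 CPM against 617 CPM. Without the 2 cells over 60000 UMIs it was at 2111 CPM. The part of these marker levels in the results above was not tested.

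Markers of other cell types were sparse in the rare cells. The 10 granulosa markers summed to 71.9 CPM, against 891 CPM in granulosa-like and 130 CPM in stroma-like cells. IRX3, IRX5 and GATM were at 0. So were FOXL2 and LGR5, which had only 3.95 and 0.712 CPM in granulosa-like cells. KITLG, BMP2 and COL4A3 were at 12.8, 10.3 and 2.57 CPM, against 255, 89.4 and 81.5 CPM in granulosa-like cells. AMHR2 was at 35.9 CPM, against 219 CPM in granulosa-like and 25.5 CPM in stroma-like cells. WNT4 was at 10.3 CPM, against 1.08 and 40.5 CPM. Single cells ranged from 0 to 213 CPM for that list. The 8 germ cell markers summed to 28.2 CPM, against 2541 CPM in germ cell-like cells. Endothelial markers also summed to 28.2 CPM, with PECAM1, CDH5, KDR, ESAM, CLDN5 and TIE1 at 0. Pericyte markers summed to 157 CPM, and 42 of their 61 UMIs were in cell 5. Macrophage markers gave 1 UMI, lymphocyte markers 1, surface epithelium markers 3, and mesonephric epithelium and glia markers 0. Of the erythroid markers only HBB was seen, at 30.8 CPM against 459 CPM in stroma-like cells.

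The wider pathway was followed through lists of genes beside the 9. In cholesterol synthesis, 11 of 18 genes were at least 2-fold higher in CYP17A1-high than in stroma-like cells and 0 were lower (median log2 ratio 1.69). At least 2-fold higher were 1.62% of all genes and lower were 4.38%. MVD, which makes isopentenyl diphosphate, stood at 195 against 32.2 CPM. The sterol oxidase MSMO1 stood at 516 against 108 CPM, and lanosterol synthase (LSS) at 97.5 against 16.8 CPM. DHCR7, which catalyses the final step, had 100.1 against 17.5 CPM. The direction of this list was the same against granulosa-like cells, with 11 of 18 higher and 0 lower, against 2.26% and 6.79% of all genes. Without the 2 cells over 60000 UMIs 13 were higher, against 2.23% of all genes.

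In cholesterol uptake and handling, 4 of 14 genes were at least 2-fold higher and 0 lower (median 0.45), against 1.62% and 4.38% of all genes. ABCA1, which exports cholesterol, was at 385 against 42.9 CPM. APOE, the lipid carrier, was at 4386 against 1856 CPM, NPC1, which moves cholesterol out of late endosomes, at 38.5 against 8.20 CPM, and the lysosomal lipase LIPA at 64.2 against 22.8 CPM. Without the 2 largest cells 6 genes of this list passed, against 2.23% of all genes.

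Among 4 electron donors and cofactors, 2 were at least 2-fold higher, against 1.62% of all genes. They were POR, which passes electrons to CYP17A1 and CYP19A1, at 241 against 53.7 CPM, and CYB5R3, at 552 against 95.2 CPM. Of 21 other steroid enzymes 1 was higher, namely CYP11A, and 3 were lower (median −0.03), against 1.62% and 4.38% of all genes. The lower ones were the oestrogen sulphotransferase SULT1E1 (0 UMIs, against 18.02 CPM in stroma-like cells), HSD11B2, which inactivates cortisol, at 12.8 against 37.6 CPM, and CYP1B1 at 115 against 244 CPM. CYP21A2, CYP11B1 and HSD17B3, which belong to the adrenal and testicular routes, had 0 UMIs in the rare cells, and 3 counts there would be 7.70 CPM.

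**Figure D3:**
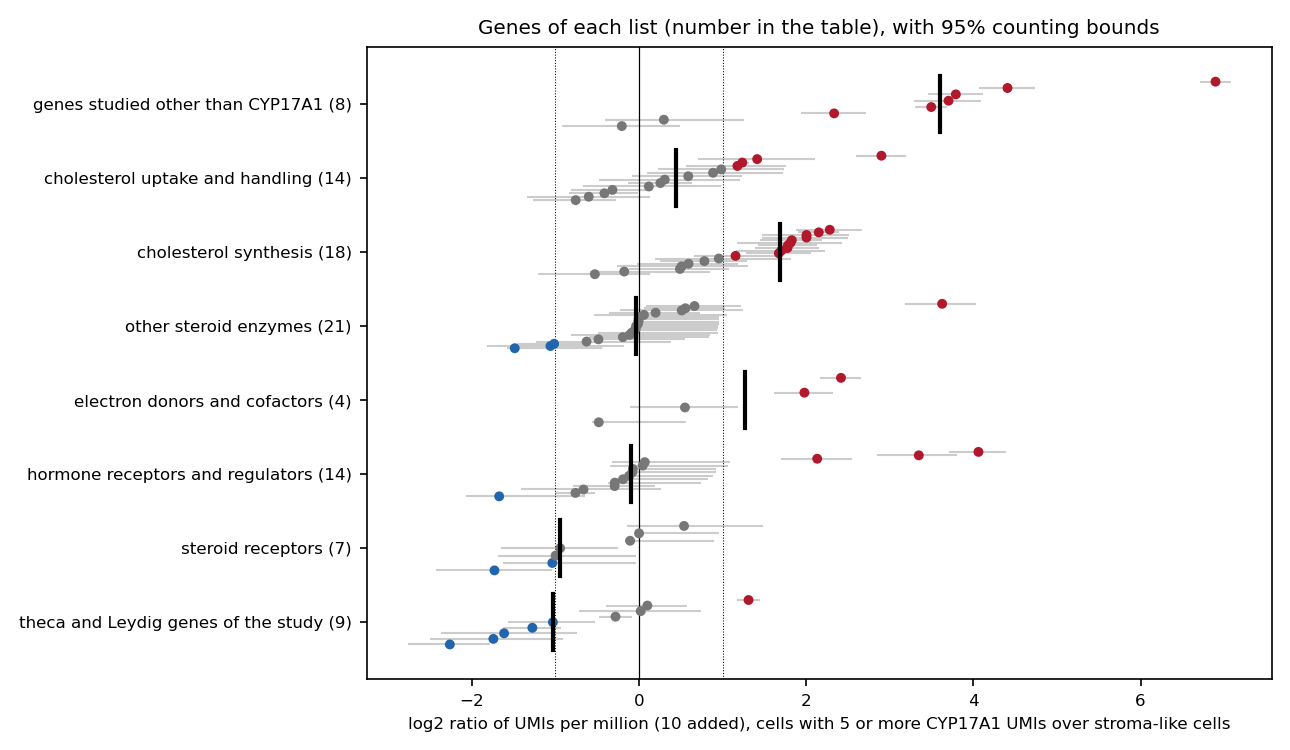
Log2 ratio of CPM (10 added) in CYP17A1-high over stroma-like cells for each gene of the 8 lists, with 95% counting bounds as grey lines; black bars are medians, dotted lines 2-fold, red points at least 2-fold higher and blue points at least 2-fold lower. The 8 genes studied (median 3.60) and cholesterol synthesis (median 1.69) lie mostly to the right, and the theca and Leydig genes of the study (median −1.03) mostly to the left.

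Of 14 hormone receptors and regulators, 3 were at least 2-fold higher and 1 lower (median −0.10), against 1.62% and 4.38% of all genes. INHA, the inhibin alpha subunit, was at 323 against 9.98 CPM and was seen in 13 of the 16 cells. NR5A1, the nuclear receptor SF-1 that drives steroidogenic genes, was seen in all 16, at 167 against 30.3 CPM. MRAP, an accessory protein of the corticotropin receptor, had 38 UMIs in 3 cells, 32 of them in cell 4. NR0B1, known as a repressor of NR5A1, had 1 UMI, against 30.1 CPM in stroma-like cells. The receptor of INSL3, RXFP2, had 0 UMIs in the rare cells and 0.525 CPM in stroma-like cells. LHCGR, the receptor of luteinizing hormone, and STAR, which brings cholesterol into mitochondria, were not analysed here.

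Of 7 steroid receptors 0 were higher and 2 lower (median −0.94), against 1.62% and 4.38% of all genes. ESR1, an oestrogen receptor, was among the lower ones, at 5.13 against 21.1 CPM. Without the 2 largest cells 4 were lower, but the share of all genes lower also rose, to 7.91%. Against stroma-like cells with barcodes ending in 2, 1 was lower, with 3.92% of all genes.

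A further 9 genes that the study used for Leydig and theca cells gave a mixed picture, and DLK1, PDGFRA and TCF21 among them are also markers by which stroma-like clusters were named. The study applied them to these samples as known markers, beside CYP17A1 as a marker of endocrine theca cells, which is left out of the list because it chose the rare cells. Only DLK1 was at least 2-fold higher than in stroma-like cells, and 5 were lower (median −1.03), against 1.62% and 4.38% of all genes. CXCL12 was at 82.1 against 432 CPM, PDGFRA at 15.4 against 75.0 CPM, WT1 at 12.8 against 59.9 CPM and TCF21 at 192 against 480 CPM. NR2F2, an orphan nuclear receptor of interstitial cells, was seen in all 16 cells at 649 against 791 CPM. ACTA2, a smooth muscle actin, had 26 of its 30 UMIs in cell 5. Set against granulosa-like cells, 7 of the 9 were higher and 1 was lower (median 1.4998), and of all genes 2.26% were higher and 6.79% lower. With stroma-like cells of barcodes ending in 2 as the reference the median was −0.48.

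Outside the rare cells, SCARB1 and FDXR were the 2 of the 9 genes at least 2-fold higher in granulosa-like than in stroma-like cells, against 3.03% of all genes. None was 2-fold lower, against 2.36% of all genes. SCARB1 had a log2 ratio of 1.92 (1.78 to 2.05), with 1.19 and 2.23 within the barcodes ending in 1 and in 2. FDXR had 1.89 (1.78 to 2.00). No other group reached the granulosa-like level of SCARB1, and endothelial-like cells came next at 30.2 CPM (25.8 to 35.2). Single clusters differed more. The granulosa-like clusters ranged from 26.3 to 129 CPM of SCARB1. The unnamed cluster led by PLXNC1 had 62.2 CPM (54.9 to 70.3), within the unnamed group at 23.8 CPM. A SCARB1 UMI was seen in 36.0% of granulosa-like and 7.41% of stroma-like cells. Thinned to 1000 UMIs per cell the shares were 7.76% and 1.57%, without the 628 and 240 cells below that depth. For FDXR, surface epithelium-like cells followed granulosa-like cells among the groups at 113 CPM (107 to 119), and germ cell-like cells had 43.4 CPM (41.0 to 46.0). The PLXNC1 cluster had 145 CPM (134 to 157) of FDXR, within the range of the granulosa-like clusters, 119 to 188 CPM.

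FDX1 had a flatter profile. Granulosa-like (146 CPM), macrophage-like (143 CPM, 121 to 167) and endothelial-like cells (141 CPM, 132 to 152) overlapped in their intervals. Stroma-like, surface epithelium-like and pericyte-like cells formed a lower set at 91.9, 89.1 and 88.5 CPM. Erythroid-like cells had the lowest level, 10.6 CPM (7.56 to 14.4), though erythroid markers lower the CPM of other genes there. The log2 ratio of granulosa-like to stroma-like cells was 0.61 (0.52 to 0.70).

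HSD17B1 was detected in 16.6% of stroma-like and 17.8% of granulosa-like cells, with overlapping neighbours in the order stroma-like, pericyte-like and granulosa-like. Its log2 ratio of granulosa-like to stroma-like cells was −0.14 (−0.27 to −0.01). Within barcodes ending in 1 it was −0.49, and within those ending in 2 it was 0.0017. This near balance hid a wide range among the 5 granulosa-like clusters. The cluster led by PCP4, with INHA and AMH, the anti-Müllerian hormone of growing follicles, among its leading genes, had 116 CPM (107 to 126), while the other 4 lay between 18.3 and 31.6 CPM. In that cluster 51.9% of 530 cells had an HSD17B1 UMI.

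CYP19A1 was sharper still. The PCP4 cluster had 64.7 CPM (58.0 to 71.9), and the other granulosa-like clusters had 1.14 to 5.71 CPM. The highest level of any cluster, 81.4 CPM (73.0 to 90.6), was in the unnamed cluster led by PLXNC1, INHBB, CYP19A1 and INHA. This cluster had 1773 cells, 1764 of them with barcodes ending in 2, a median of 1775 UMIs and a median of 48.8% mitochondrial UMIs. It also held the second-highest level of HSD17B1, 70.4 CPM (62.6 to 78.9). The part that the high mitochondrial share has in these values was not tested.

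**Figure D4:**
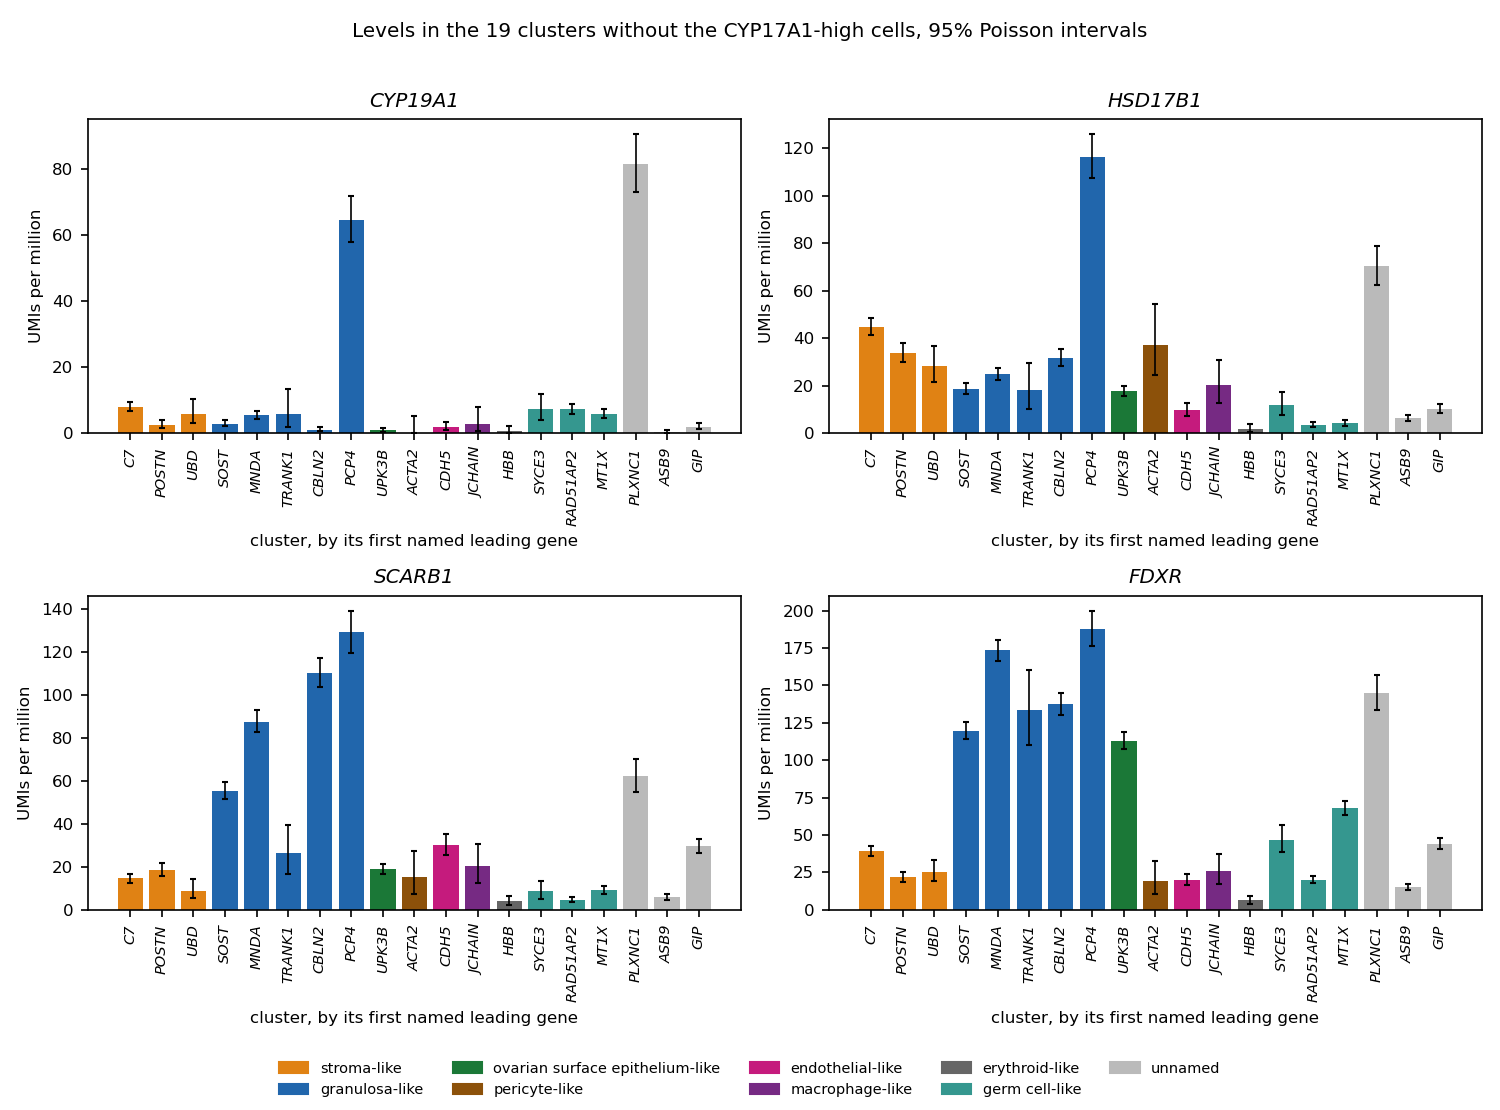
Levels of CYP19A1, HSD17B1, SCARB1 and FDXR in the 19 clusters, without the CYP17A1-high cells, as CPM (bars from 0) with exact 95% Poisson intervals; clusters are named by a leading gene and coloured by class. CYP19A1 is high in the PCP4 and PLXNC1 clusters, at 64.7 and 81.4 CPM, and HSD17B1 in the same pair, at 116 and 70.4 CPM. SCARB1 and FDXR are spread over the granulosa-like clusters, and the PLXNC1 cluster has 62.2 and 145 CPM of them.

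Much of CYP19A1 came from few cells. In granulosa-like cells, 24 cells with 5 or more UMIs held 43.7% of the UMIs, in unnamed cells 16 held 60.7%, and in stroma-like cells 6 held 55.9%. Without those cells the granulosa-like level was 6.19 CPM and the stroma-like level 2.72 CPM. The largest single counts were 47 in an unnamed cell and 33 in a stroma-like cell. Germ cell-like cells had 6.69 CPM (5.74 to 7.75), spread over 2.89% of cells, and the log2 ratio to granulosa-like cells was −0.32 (−0.48 to −0.17). Without the cells at 5 or more UMIs germ cell-like cells had 5.84 CPM and the ratio was −0.03 (−0.18 to 0.12). This cut uses CYP19A1 itself and depends on depth (median 5439 UMIs in granulosa-like, 1319 in germ cell-like cells), so no conclusion is drawn. The PCP4 cluster held 344 of the 474 granulosa-like UMIs, in 120 cells. Each other granulosa-like cluster, at 1.14 to 5.71 CPM, lay below each germ cell-like cluster, at 5.89 to 7.34 CPM, with some intervals overlapping.

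Outside the rare cells, the level of HSD3B2 was highest in pericyte-like cells, at 24.9 CPM (14.8 to 39.4) from 18 UMIs in 11 of 137 cells. The interval did not overlap that of any other of these groups. Among granulosa-like clusters the one led by CBLN2, LYPD1 and CTSD had 15.6 CPM (13.2 to 18.3), and the other 4 had at most 1.67 CPM. The stroma-like cluster led by UBD had 12.5 CPM (8.08 to 18.4) and that led by C7 9.16 CPM (7.68 to 10.8), but that led by POSTN 0.507 CPM (0.138 to 1.30). The POSTN cluster is almost wholly of barcodes ending in 1, and in all 6 of the 546 HSD3B2 UMIs came from that ending, so cluster and ending cannot be told apart.

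INSL3 in stroma-like cells also differed between clusters, with 14.5 CPM (12.6 to 16.5) in the C7 cluster, 6.99 CPM (3.82 to 11.7) in the UBD cluster and 0.887 CPM (0.357 to 1.83) in the POSTN cluster. The C7 cluster held 4 of the 5 cells with 5 or more UMIs, with 140 of its 215. Without such cells it had 5.08 CPM and the UBD cluster 4.56 CPM, so the order of this pair rests on them. In the C7 cluster 2466 of 2474 cells had barcodes ending in 2, and in the POSTN cluster 1850 of 1906 had barcodes ending in 1. Of the 1267 INSL3 UMIs 25 came from ending 1, so cluster and ending cannot be told apart for INSL3 either. Germ cell-like cells stood at 2.00 CPM (1.501 to 2.62). In the germ cell-like cluster with oogenesis markers, with ZAR1 and PADI6 among its leading genes, 33 of 731 cells had a UMI. Its level was 3.16 CPM (2.22 to 4.35), at a median depth of 3051 UMIs. The germ cell-like cluster led by SYCE3 had a like level, 3.19 CPM (1.28 to 6.58), at a median depth of 823 UMIs. That led by RAD51AP2 had 0.718 CPM (0.328 to 1.36). No germ cell-like cell had more than 3 INSL3 UMIs. SRD5A1 was low everywhere, from 0.529 CPM (0.0641 to 1.91) in erythroid-like cells, where erythroid markers lower it, to 8.54 CPM (7.70 to 9.46) in granulosa-like cells. No cell had more than 4 UMIs of it, and its row overlaps a long non-coding gene in the same RefSeq annotation.

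Likeness between genes was measured as Pearson's r of log2(CPM + 10) over the 19 clusters, among 6839 genes that reached 50 CPM in some cluster. It is a description of clusters that share libraries and depth, and the 16 rare cells were counted in their clusters, so the values of CYP17A1 and INSL3 rest largely on those cells. CYP17A1 was most like INSL3 (r = 0.97). CYP19A1 was most like INHA (0.92), AMH (0.87) and LIPH (0.87). FDXR was most like GREB1 (0.97), the sterol reductase TM7SF2 (0.93) and AMHR2, the receptor of anti-Müllerian hormone (0.91). SCARB1 was most like HS6ST1 (0.95), IVNS1ABP (0.94) and NNT (0.93). HSD17B1 was most like SERPINE2 (0.92) and DKK3 (0.89) among genes with a symbol, and HSD3B2 like the Notch target HEYL (0.91), SULT1C4 (0.90) and CCN4 (0.89). For FDX1 the genes were SZRD1, TENT2 and FLOT1 (0.92 to 0.93), and for SRD5A1, which nowhere exceeded 11.5 CPM, PAK4, TSTA3 and PNKD (0.87 to 0.88).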

How the data were processed

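Single-cell RNA was captured with the 10x 3' chemistry in 2 samples, E84 and E116, each from 1 fetus with both ovaries pooled. The table deposited by the authors holds whole-number counts of UMIs, produced with Cell Ranger 3.0.2 against the Macaca_fascicularis_5.0 genome and not normalized. The table held no cell under 200 genes and no gene in fewer than 3 cells, but cells above 3000 genes, which the study's limit removes, were kept in it and used here, while 16292 cells meet that limit. Steps against doublets or free RNA are not given in the sources used here. All cells were taken as 1 pooled sample.

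Clustering used Seurat 5.3.0 (R 4.3.3, Matrix 1.6.5) with 2000 variable genes, 18 components, 20 neighbours and resolution 0.6, of which the components and the resolution follow the study, with 112 genes of the lists kept out. A cluster name needed 3 markers at 1.5-fold (10 CPM added) in 5% of cells. Scrublet (scanpy 1.11.5) called 0 cells in either ending and so did not work as a caller, and no doublets were removed. Levels are CPM from summed UMIs with exact 95% Poisson intervals, shares have exact binomial intervals, and ratios are log2 with 10 CPM added and bounds from both levels. These cover counting error only, and a count of 0 was read as up to 3 counts. The ratio was tested on simulated data. Python 3.11.15, numpy 2.4.6, scipy 1.17.1, pandas 2.3.3 and matplotlib 3.10.9 were used.

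Genes named are the 9, up to 5 per list past 2-fold by size, the 10 leading genes of the rare cells seen in at least 1 of 3 of them, and the 3 most alike per gene. Others named as at 0 or not past the limit, and cells singled out, were chosen after their values were seen. The members and lists were chosen with earlier results of these data known. The row CYP11A was added after the table was seen. Symbols without a row, among them CYP11B2, HSD3B1, CYB5A, FDPS, EBP, SULT2A1, MC2R and PLIN2, were not analysed here. Gene overlaps come from RefSeq T2T-MFA8v1.1, and no sequence or coordinate is given because the builds differ. Some genes that this rule picks are not reported here.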

Additional observations from a re-analysis of the deposited data

How the results depend on the processing

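No paired analysis was possible because each stage is 1 sample and no test was made. Of 53 alternatives to the main results 29 stayed within the counting bounds and 24 moved beyond them, and of 167 for single genes 112 stayed and 55 moved. Some of those that stayed had little room to move. No CYP17A1-high cell was among the 8% with the highest Scrublet scores, so that cut left all 16. At resolutions 0.4 and 1.0 the CYP17A1-high cells were the same, and only their reference could change. No ratio past 2-fold changed sign. Below 2-fold, HSD17B1 changed sign under 1 alternative in granulosa-like over stroma-like cells and under 3 in CYP17A1-high over stroma-like cells, and SRD5A1 under 4 in the latter. With 200 to 3000 genes per cell, 4 CYP17A1-high cells were left, the median log2 ratio of the other 8 genes to stroma-like cells was 2.801, and CYP19A1 in germ cell-like over granulosa-like cells was −0.4921. At up to 10% mitochondrial UMIs 8 such cells were left, with a median of 2.719, HSD17B1 at −0.2891 and SCARB1 at 1.517 in granulosa-like over stroma-like cells, and CYP19A1 at −0.8732. With 1 CPM added the median was 4.001, SCARB1 2.405 and CYP19A1 −0.6276. Within barcodes ending in 1, HSD17B1 was −0.4921, SCARB1 1.189 and CYP19A1 −0.6176, and no value for CYP17A1-high cells exists. Within barcodes ending in 2, HSD17B1 was 0.001716 and SCARB1 2.234. CYP19A1 was −0.4928 at resolution 1.0 and −0.5719 with 30 components, and SCARB1 was 1.693 from means of single cells. The median was 2.38 with granulosa-like cells as the reference. In alternatives chosen after seeing the data, it was 3.168 against all other cells and 4.01 without the cells over 60000 UMIs, CYP19A1 was −0.03139 without the cells at 5 or more of its UMIs, and −0.6959 with the unnamed PLXNC1 cluster counted as granulosa-like. The number of cells was 20 at 3 or more CYP17A1 UMIs and 15 at 10 or more. Apart from the removal of cells by the settings themselves, the cause was not tested. Levels of the rare cells rest on 16 cells of 1 ending, and intervals do not cover the spread between animals.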

Other observations

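Genes outside the lists were also high in the CYP17A1-high cells. Among the 10 genes with the largest log2 ratio to all other cells, with 10 CPM added, were APOA1, the main protein of high-density lipoprotein, at 1676 against 44.7 CPM (log2 ratio 4.95), and WFDC1, a secreted protein with a WAP domain, at 901 against 32.7 CPM (4.41). WFDC1 was also among the 10 leading genes of both stroma-like clusters that hold these cells, so it is not particular to them. CYP17A1, INSL3, HSD3B2, INHA and CYP11A were in the same 10, and the other 3 have no symbol in the table. The cells were chosen by CYP17A1 and no test was made.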
